A study of Mus musculus with 36 samples.

Results

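The smooth muscle contractile genes followed here in primary enteric glial cell (EGC) cultures were chosen by symbol and are Acta2, Tagln, Myh11, Cnn1, Actg2, Des, Myl9, Tpm1, Tpm2 and Cald1. They were chosen with earlier results of these data known, so the shares of all genes given beside their counts are descriptions. They are 10 of the 43472 genes in the count table, and all 10 passed the filter on low counts at every time point. The EGCs had a wild-type (WT) genotype and were grown from neurospheres of whole embryonic C57BL/6J mouse intestine, seeded on coated plates and differentiated in medium with serum. Cultures were left unstimulated or received conditioned medium (CM) for 6 h, 12 h or 24 h. H-CM came from digested healthy mouse colon, and TME-CM from digested orthotopic tumors of MC38, a mouse colon adenocarcinoma line, each as cells kept overnight in the same serum-containing medium. Each of the 9 groups held 4 libraries of 3′ mRNA sequencing, 36 in all, and the question was how glial cultures respond to factors released by the tumor microenvironment. No sorting step was described for these cultures, which were sequenced in bulk.

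Smooth muscle shortens when myosin pulls on actin filaments. Acta2 and Actg2 encode the smooth muscle actins, Myh11 the smooth muscle myosin heavy chain and Myl9 a regulatory light chain, while tropomyosins (Tpm1, Tpm2), caldesmon (Cald1) and calponin (Cnn1) sit on the thin filament and tune its contact with myosin. Tagln encodes transgelin, an actin-binding protein, and Des encodes desmin, the muscle intermediate filament. Many of these genes are activated by serum response factor (SRF) together with myocardin-related cofactors at a short DNA element named the CArG box. In the gut wall they mark smooth muscle of the muscle layers, and several are also used by myofibroblasts and pericytes, with Acta2, Tagln, Tpm1, Myl9 and Cald1 being less restricted than Myh11.

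The stretches that hold a CArG box, or a close match to one, before the RefSeq start of a member gene are shown. Many of these genes are known to be activated through this element. RefSeq promoter entries (GRCm38.p6) were found for 7 of the 10 genes, 8 entries in all, namely Acta2, Cnn1, Des, Myl9, Tpm1, Tpm2 and Cald1. The 250 bases before each RefSeq start were searched on both strands for the CArG box (10 bases, of which the 6 inner ones are A or T) and for the same motif with 1 of the inner bases a G or C. The motif reads the same on both strands, so each match counts once. The full motif stood in 1 of the 8 entries, and in 482 of all 32851 mouse promoter entries (1.47%). With the loosened motif included, 2 of the 8 entries (25%) and 8.59% of all entries held a match. Each stretch runs 5′ to 3′ on the strand of the gene, with the match in capitals.
Acta2, 84 bases before the RefSeq start: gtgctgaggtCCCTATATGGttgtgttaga
Acta2, 34 bases before the RefSeq start: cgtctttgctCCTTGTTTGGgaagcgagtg
Myl9, 161 bases before the RefSeq start: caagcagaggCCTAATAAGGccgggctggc
Myl9, 99 bases before the RefSeq start: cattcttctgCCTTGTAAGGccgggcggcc
Both Acta2 stretches lie on the minus strand, at chr19:34255438-34255467 and chr19:34255388-34255417, and each has 1 inner base that is G or C. The RefSeq start of Acta2 used here, 34255373, lies inside the longer GENCODE gene span, which starts at 34255590, and both stretches fall in an annotated GENCODE exon of Acta2. The Myl9 stretches lie on the plus strand, at chr2:156775293-156775322 with the full motif and at chr2:156775355-156775384 with 1 inner base that is G or C. They lie before both the RefSeq start of Myl9, 156775464, and the GENCODE start, 156775420, and overlap no GENCODE exon.

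Total counts ranged from 13518 to 7552509 a library, and the median was lowest at 6 h (1526580, against 4090589 for 12 h and 5465091 for 24 h). The smallest, H-CM replicate 4 of 6 h, had 133 counts over the 10 genes together, and a level of 3 counts in it corresponds to 110.5 CPM (a count scaled to the size of its library). A single entry, Yam1, took 11 to 48.6% of the counts of a library, and at 24 h it exceeded 25% only in unstimulated replicate 1 (30.7%) and TME-CM replicate 2 (35.1%). Levels are CPM after TMM scaling over all 36 libraries, and differences were tested with edgeR's quasi-likelihood test within a time point (times within a stimulation), with Benjamini-Hochberg adjusted p-values over all genes tested and a threshold of 0.05. CPM from 3′ reads is not divided by gene length, and levels are compared between groups, not between genes. The labels do not say whether the 4 libraries of a group came from separate cultures, so the p-values measure the spread between these libraries, which may be technical.

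The 8 enteric glial markers (Sox10 and Gfap among them) summed to 218 to 251 CPM in the unstimulated libraries of 24 h, and none of the 8 had a group mean of 0. In the same libraries the 10 contractile genes summed to 13529.6 to 16279 CPM, 15 other smooth muscle genes to 3501 to 4728 CPM and 10 fibroblast markers to 7009.9 to 9115 CPM. Acta2, Cald1 and Tpm1 had the highest means of the 10 genes there (5724, 3266 and 3042 CPM). Des and Myh11 had the lowest (131 and 147 CPM). The sum therefore rests mostly on genes named above as less restricted than Myh11. These sums show that the transcripts were present, and the sizes of different lists are not compared. The cultures labelled enteric glial cells thus carried transcripts of glial, muscle and connective tissue genes together. In bulk libraries of this kind, fewer cells of a contractile type and less contractile RNA per cell cannot be told apart.

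At 24 h the group means of all 10 contractile genes were highest in unstimulated EGCs, intermediate in H-CM EGCs and lowest in TME-CM EGCs. Their summed level was 14935 ± 1134 CPM (SD, n = 4) in unstimulated EGCs, 8441 ± 1139.7 CPM in H-CM EGCs and 6283 ± 202 CPM in TME-CM EGCs, so that H-CM cultures held 56.5% and TME-CM cultures 42.1% of the unstimulated mean. The sum rests mostly on Acta2, Cald1 and Tpm1, which had the highest levels. Against unstimulated EGCs, 9 of the 10 genes were called lower with TME-CM, all but Cald1, where 4.70% of the 12713 genes tested were called lower. With H-CM the same 9 genes were called lower than in unstimulated EGCs, where 0.960% of all genes were. Between TME-CM and H-CM EGCs, 4 genes were called lower with TME-CM, namely Acta2, Myh11, Cnn1 and Des, where 2.65% of all genes were. The median log2 fold change of the 10 genes was -1.61 for TME-CM versus unstimulated, -1.04 for H-CM versus unstimulated and -0.57 for TME-CM versus H-CM, and over all genes tested it was between 0.0019 and 0.0049. The 3 comparisons share libraries and are not independent of one another.

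The number of the 10 genes called lower with TME-CM than with H-CM at 24 h depended on the libraries and on the model. The share of all genes called in the fits that follow is not given here. A change in the number of members called is therefore not read as particular to them. Without the 2 libraries in which Yam1 exceeded 25%, 7 genes were called for TME-CM versus H-CM, with Actg2, Myl9 and Tpm2 added, and all 10 were called lower than unstimulated with either medium. In a single model of all 36 libraries, which pools the spread of the 6 h libraries with the rest, none of the 10 was called for TME-CM versus H-CM (adjusted p between 0.136 and 1 for the 4 genes), 3 remained for H-CM versus unstimulated (Acta2, Tagln and Actg2) and 9 for TME-CM versus unstimulated.

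**Figure D1:**
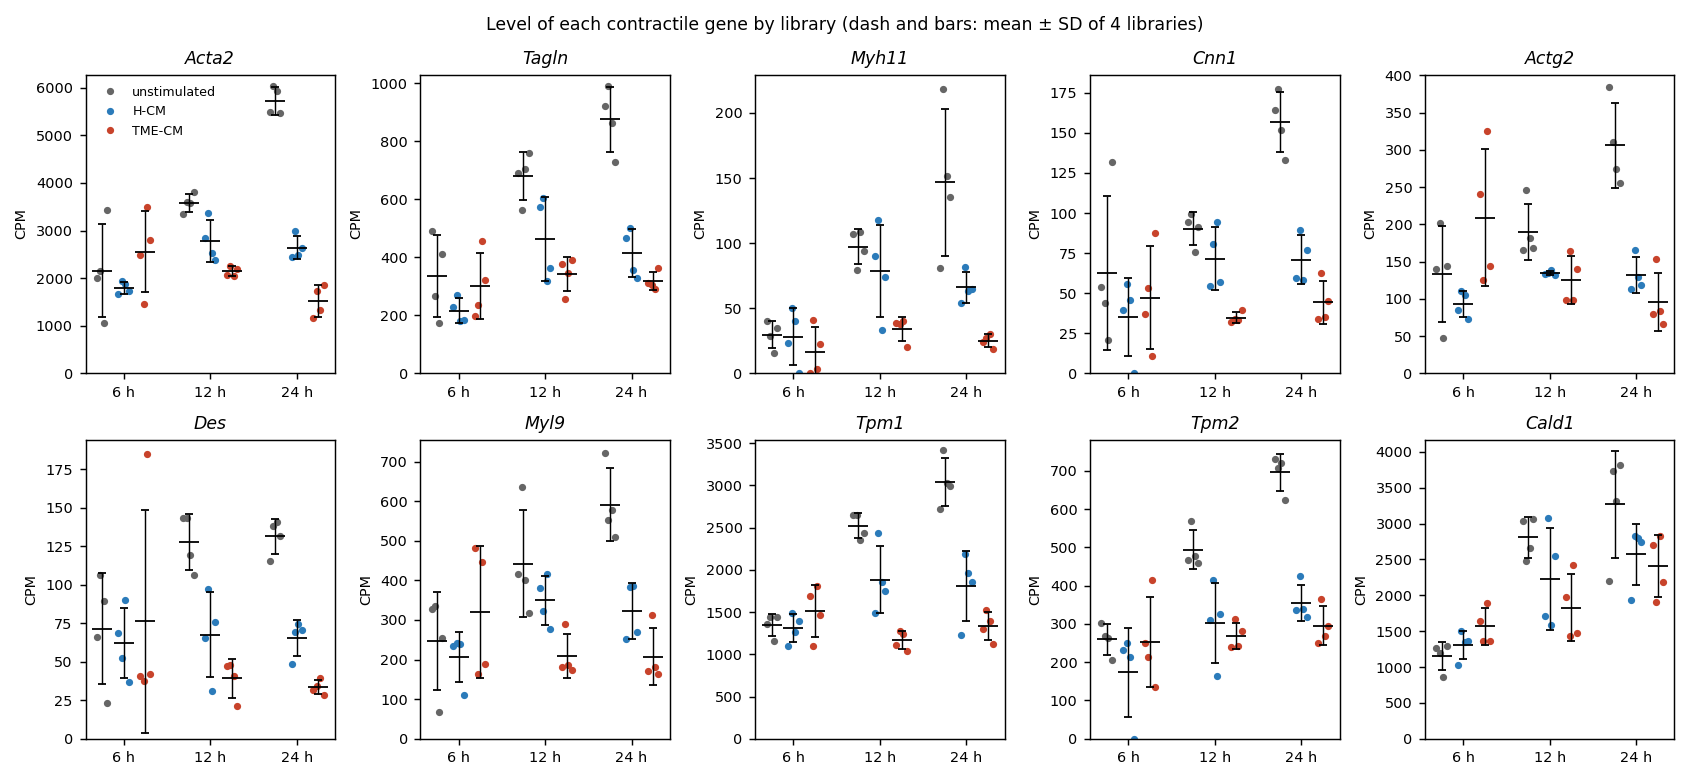
Level of each contractile gene (CPM, linear axis from 0) in every library by time after stimulation. Points are libraries (grey unstimulated, blue H-CM, red TME-CM) and the dash with bars is the mean ± SD of 4 libraries. At 24 h the unstimulated libraries of Acta2 lie between 5458 and 6025 CPM and the TME-CM libraries between 1162 and 1863 CPM.

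The smooth muscle actins were both lower after either conditioned medium at 24 h. Acta2 (alpha actin, chr19:34241090-34255590, minus strand, build GRCm38) stood at 5491, 6025, 5924 and 5458 CPM in the unstimulated libraries of 24 h, at 2454, 2979.6, 2483 and 2629 CPM with H-CM and at 1162, 1729.6, 1338 and 1863 CPM with TME-CM. The 3 groups formed 3 separate ranges, with each TME-CM library under each H-CM library and each H-CM library under each unstimulated one. On the log2 scale Acta2 differed by -1.91 (SE 0.14, adjusted p = 2.83e-09) for TME-CM versus unstimulated, -1.12 (SE 0.14, adjusted p = 6.26e-05) for H-CM versus unstimulated and -0.80 (SE 0.14, adjusted p = 0.000708) for TME-CM versus H-CM. Acta2 was 3.77-fold lower in TME-CM EGCs and 2.17-fold lower in H-CM EGCs than in unstimulated EGCs. Actg2 (enteric gamma actin, chr6:83512905-83536265, minus strand) stood at 384, 311, 274 and 255 CPM without stimulation, at 113, 166, 130.1 and 118 CPM with H-CM and at 80.1, 154, 84.1 and 66.3 CPM with TME-CM. Unstimulated libraries all lay above the others, while TME-CM replicate 2 lay within the H-CM range. Its log2 fold change was -1.69 (SE 0.22, adjusted p = 4.28e-05) for TME-CM and -1.21 (SE 0.22, adjusted p = 0.00532) for H-CM, each against unstimulated EGCs. For TME-CM versus H-CM it was -0.48 (SE 0.22, adjusted p = 0.283) with all 12 libraries and -0.79 (adjusted p = 0.00295) without TME-CM replicate 2, in which Yam1 took 35.1% of the counts. The actin genes have closely similar coding sequences and the authors discarded reads that map to several places. How many reads of each actin this removed was not tested.

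Myh11, the myosin heavy chain of differentiated smooth muscle (chr16:14194535-14291372, minus strand), showed the largest fold of the 10 genes with TME-CM at 24 h. It stood at 81.2, 219, 152 and 136 CPM in unstimulated libraries, 54.1, 81.8, 63.4 and 64.9 CPM with H-CM and 24.2, 27.2, 30.5 and 18.6 CPM with TME-CM. Every TME-CM library was under every H-CM library, and unstimulated replicate 1 overlapped the H-CM range by a narrow margin. On the log2 scale Myh11 differed by -2.56 (SE 0.25, adjusted p = 1.37e-06) for TME-CM versus unstimulated, a 5.88-fold lower level, and -1.40 (SE 0.24, adjusted p = 0.00170) for TME-CM versus H-CM. For H-CM versus unstimulated it was -1.16 (SE 0.23, adjusted p = 0.0111), and without H-CM replicate 1 it was -1.07 (adjusted p = 0.0502). Myl9, a regulatory light chain of smooth and non-muscle myosin (chr2:156775420-156781658, plus strand), stood at 722, 554, 578 and 509 CPM without stimulation, 252, 382, 386 and 269.9 CPM with H-CM and 169.9, 314, 182 and 164 CPM with TME-CM. All unstimulated libraries were above all stimulated ones, and TME-CM replicate 2 was again the library within the H-CM range. Myl9 had a log2 fold change of -1.52 (SE 0.20, adjusted p = 4.22e-05) for TME-CM and -0.87 (SE 0.20, adjusted p = 0.0255) for H-CM, each against unstimulated EGCs, and the H-CM call was lost without unstimulated replicate 1, 2 or 3 or without H-CM replicate 1 or 4 (adjusted p between 0.0574 and 0.0998). For TME-CM versus H-CM it was -0.65 (SE 0.20, adjusted p = 0.0722). That comparison passed the threshold without TME-CM replicate 2, at -0.92 (adjusted p = 0.00062), or without H-CM replicate 1, at -0.75 (adjusted p = 0.0323).

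Of the thin filament genes, Cnn1 and both tropomyosins were called lower after either medium at 24 h, and Cald1 was not. Cnn1, which encodes calponin, an inhibitor of the actomyosin ATPase (chr9:22099216-22109630, plus strand), stood at 164, 177, 152 and 133 CPM without stimulation, 59.6, 89.6, 58.0 and 76.7 CPM with H-CM and 34.2, 62.9, 35.1 and 45.5 CPM with TME-CM. The unstimulated libraries were above all others, and TME-CM replicate 2 lay within the H-CM range. Cnn1 had a log2 fold change of -1.85 (SE 0.19, adjusted p = 3.81e-07) for TME-CM versus unstimulated, -1.15 (SE 0.18, adjusted p = 0.00101) for H-CM versus unstimulated and -0.70 (SE 0.19, adjusted p = 0.0266) for TME-CM versus H-CM. The last call was lost without TME-CM replicate 1, 3 or 4 or without H-CM replicate 2 or 4, with adjusted p between 0.0579 and 0.144. Tpm1 (chr9:67022590-67049406, minus strand) stood at 2721, 3421, 3034 and 2990.4 CPM without stimulation, 1223, 2188, 1965 and 1851 CPM with H-CM and 1302, 1522, 1396 and 1118 CPM with TME-CM. Unstimulated libraries lay above the others, whereas H-CM replicate 1 fell among the TME-CM libraries. Tpm1 had a log2 fold change of -1.19 (SE 0.15, adjusted p = 6.97e-06) for TME-CM, -0.75 (SE 0.15, adjusted p = 0.00657) for H-CM, each against unstimulated EGCs, and -0.44 (SE 0.15, adjusted p = 0.0973) between the media. Without H-CM replicate 1 that last difference was -0.59 (adjusted p = 0.00451). Tpm2 (chr4:43514711-43523765, minus strand) stood at 730.5, 709, 719 and 625 CPM without stimulation, 336, 425, 339 and 319 CPM with H-CM and 251, 366, 269 and 295 CPM with TME-CM. The stimulated groups overlapped each other and both lay under all unstimulated libraries. Its log2 fold change was -1.24 (SE 0.13, adjusted p = 6.72e-07) for TME-CM, -0.97 (SE 0.13, adjusted p = 0.000146) for H-CM and -0.27 (SE 0.13, adjusted p = 0.312) between the media.

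Cald1, whose caldesmon isoforms occur in smooth muscle and in non-muscle cells (chr6:34598500-34775473, plus strand), was the one member not called in any stimulation comparison. At 24 h it stood at 2198, 3736, 3320.1 and 3809 CPM without stimulation, 1934, 2823, 2792 and 2740.2 CPM with H-CM and 2704, 1903, 2823 and 2191 CPM with TME-CM. The 3 groups overlapped, with unstimulated replicate 1 inside the range of the stimulated libraries. On the log2 scale Cald1 differed by -0.45 (SE 0.17, adjusted p = 0.122) for TME-CM versus unstimulated, -0.34 (SE 0.17, adjusted p = 0.488) for H-CM versus unstimulated and -0.10 (SE 0.17, adjusted p = 0.854) for TME-CM versus H-CM. Without unstimulated replicate 1, one of the libraries with a high Yam1 share, the first of these was -0.59 (adjusted p = 0.00773). A gene-level count does not separate the muscle and non-muscle isoforms of Cald1, Tpm1 or Tpm2.

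Tagln, the gene of transgelin (chr9:45929619-45936058, minus strand), stood at 922, 989, 861 and 728 CPM in unstimulated libraries, 467, 501, 357 and 329.8 CPM with H-CM and 312, 305, 291 and 365 CPM with TME-CM. The unstimulated libraries were separate from the rest, and both media gave overlapping values. Tagln had a log2 fold change of -1.46 (SE 0.14, adjusted p = 1.92e-07) for TME-CM, -1.08 (SE 0.14, adjusted p = 0.000109) for H-CM, each against unstimulated EGCs, and -0.38 (SE 0.14, adjusted p = 0.135) between the media. Of its 1988 annotated exon bases, 1349 overlap exons of Pcsk7 and Gm48529, which run the other way, and whether reads were counted by strand is not given in the sources used here. Des, the gene of desmin (chr1:75360329-75368579, plus strand), stood at 115, 138, 140.5 and 132 CPM without stimulation, 48.5, 69.5, 74.2 and 70.3 CPM with H-CM and 31.4, 34.5, 39.3 and 28.4 CPM with TME-CM. The 3 groups were separate, as for Acta2. Des had a log2 fold change of -1.98 (SE 0.15, adjusted p = 5.91e-09) for TME-CM versus unstimulated, -1.005 (SE 0.15, adjusted p = 0.000452) for H-CM versus unstimulated and -0.98 (SE 0.15, adjusted p = 0.000274) for TME-CM versus H-CM, a 1.97-fold lower level with TME-CM than with H-CM. Of the 3754 exon bases of Des, 220 overlap Gm15179 on the opposite strand, and the other 8 members share no annotated exon base with another gene.

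Counted by separation, all 4 TME-CM libraries of 24 h lay below all 4 unstimulated libraries for 9 of the 10 genes, against 6.32% of all genes. For H-CM versus unstimulated EGCs this held for 8 genes, against 4.04% of all genes. Between TME-CM and H-CM it held for Acta2, Myh11 and Des, against 5.57% of all genes.

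**Figure D2:**
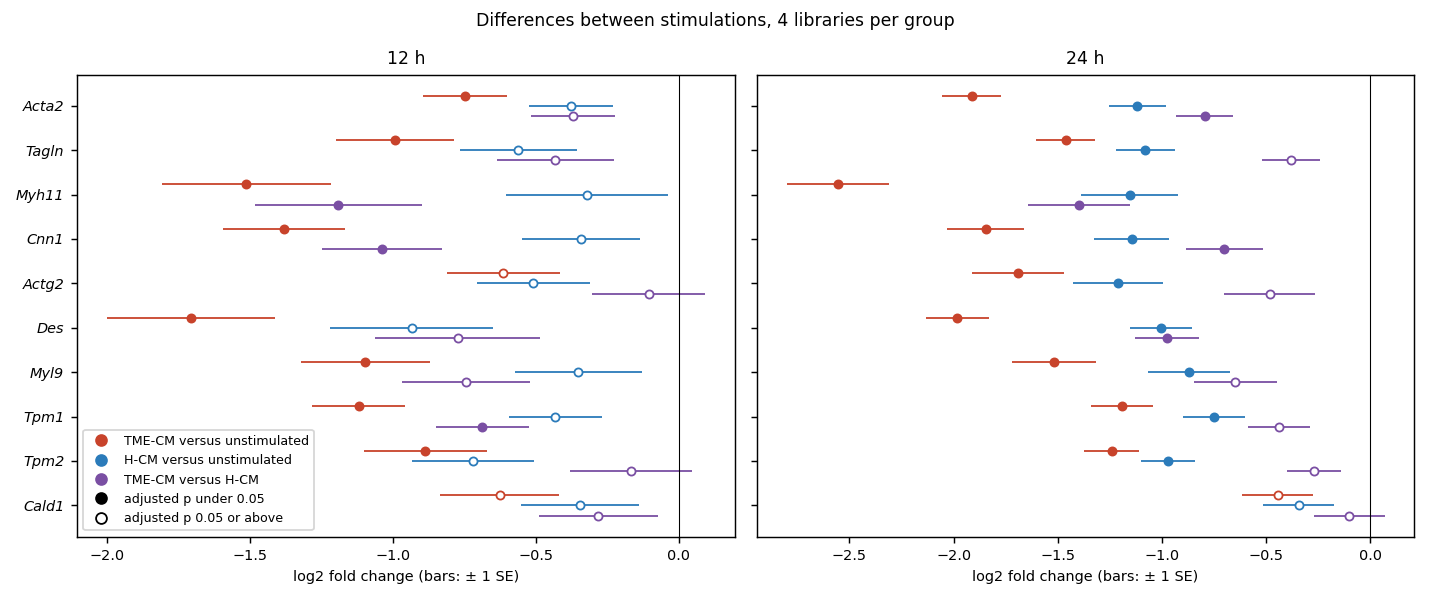
Log2 fold change of each contractile gene at 12 h (left) and 24 h (right) in the 3 comparisons between stimulations, with 4 libraries per group. Points are the fitted values, bars ± 1 SE, and filled points passed an adjusted p of 0.05. All points lie below 0, from -2.56 for Myh11 to -0.10 for Cald1 at 24 h.

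At 12 h the TME-CM EGCs already stood below unstimulated EGCs, while H-CM EGCs were not called different. The summed level of the 10 genes was 11034 ± 265 CPM in unstimulated EGCs, 8367 ± 1572 CPM in H-CM EGCs and 6188 ± 378 CPM in TME-CM EGCs (SD, n = 4). For TME-CM versus unstimulated, 8 genes were called lower, all but Actg2 and Cald1, where 1.74% of the 12156 genes tested were called lower. For all 10 genes each TME-CM library lay below each unstimulated library, against 4.61% of all genes. For H-CM versus unstimulated, 0 of the 10 genes were called by edgeR and 0 by DESeq2. By edgeR 0.0494% of all genes were called lower there, and DESeq2 called 99 genes in either direction. An unadjusted p under 0.05 was found for 6 of the 10 genes, all lower, against 5.66% of all genes in either direction. The H-CM libraries lay below all unstimulated libraries for 3 genes (Actg2, Des and Tpm2), against 1.58% of all genes. For TME-CM versus H-CM, Myh11, Cnn1 and Tpm1 were called lower with TME-CM, where 0.675% of all genes were. The groups did not overlap for Acta2, Cnn1 and Tpm1, 3 of the 10 genes against 3.27% of all genes. The medians of the 10 log2 fold changes were -1.05, -0.40 and -0.56 in the order of these comparisons. Whether the H-CM effect differed between 12 h and 24 h was not tested.

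Cnn1 had the clearest difference between the media at 12 h. It stood at 94.6, 99.6, 75.7 and 91.6 CPM without stimulation, 54.3, 80.7, 94.7 and 56.9 CPM with H-CM and 32.1, 34.0, 33.5 and 39.8 CPM with TME-CM. The TME-CM libraries formed a narrow range under both other groups, which overlapped each other. The log2 fold change of Cnn1 was -1.38 (SE 0.21, adjusted p = 0.000224) against unstimulated and -1.04 (SE 0.21, adjusted p = 0.00884) against H-CM, and the latter kept an adjusted p under 0.05 without any one of the 12 libraries. Tpm1 stood at 2654, 2649, 2355 and 2438 CPM, 1493, 2442, 1860.2 and 1749 CPM and 1111, 1273, 1239 and 1044 CPM in the same order of groups. All its TME-CM libraries were lowest, with a log2 fold change of -1.12 (SE 0.16, adjusted p = 0.000131) against unstimulated and -0.69 (SE 0.16, adjusted p = 0.0280) against H-CM. Myh11 stood at 107, 79.5, 109 and 94.3 CPM without stimulation, 89.8, 118, 33.3 and 73.7 CPM with H-CM and 38.6, 37.6, 40.2 and 20.6 CPM with TME-CM. H-CM replicate 3 lay within the TME-CM range and the other H-CM libraries above it. The log2 fold change of Myh11 was -1.51 (SE 0.29, adjusted p = 0.00265) against unstimulated and -1.19 (SE 0.29, adjusted p = 0.0367) against H-CM. Des stood at 143, 143, 119 and 106 CPM, 65.6, 97.3, 31.0 and 75.8 CPM and 47.2, 48.0, 41.0 and 21.1 CPM in these groups, with the same H-CM replicate 3 among the TME-CM values. Its log2 fold change was -1.71 (SE 0.29, adjusted p = 0.000792) against unstimulated and -0.77 (SE 0.29, adjusted p = 0.270) against H-CM, and the latter was -1.03 (adjusted p = 0.0188) without H-CM replicate 3.

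Of the other members at 12 h, Acta2 was 1.68-fold, Tagln 1.99-fold, Myl9 2.14-fold and Tpm2 1.85-fold lower with TME-CM than without stimulation, and all passed the test (adjusted p between 0.00274 and 0.0151). Actg2 had a log2 fold change of -0.61 (SE 0.20, adjusted p = 0.0989) and Cald1 of -0.63 (SE 0.21, adjusted p = 0.114) in that comparison. 2 of the calls between the media at 12 h turned on single libraries. The Myh11 call was kept without H-CM replicate 3 and without unstimulated replicate 2, and was lost without any other single library of the 12 (adjusted p between 0.0512 and 0.175). It was also lost with a term in the model for libraries in which Yam1 exceeded 25%, at -1.10 (adjusted p = 0.0655). The Tpm1 call was lost without TME-CM replicate 1, 3 or 4 or H-CM replicate 2 or 4 (adjusted p between 0.0509 and 0.142). For TME-CM versus unstimulated the Tpm2 call was lost without TME-CM replicate 1 or 3 or unstimulated replicate 2 (adjusted p between 0.0569 and 0.0641). In the single model of 36 libraries none of the 10 genes was called between the media at 12 h, and 5 were called for TME-CM versus unstimulated. The share of all genes called in that model is not given here.

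At 6 h none of the 10 genes was called in any comparison between stimulations by edgeR or DESeq2 fitted within the time point. Among the 9256 genes tested by edgeR, 0.454% were called in either direction for TME-CM versus unstimulated, 0% for H-CM versus unstimulated and 0.0972% for TME-CM versus H-CM. DESeq2 called 95, 0 and 24 of all genes in the same order. At an unadjusted p under 0.05 the 10 genes gave 0, 0 and 1, the last being Actg2, higher with TME-CM. Of all genes, 6.19%, 0.627% and 6.07% passed in the same order, in either direction. Actg2 stood at 241, 126, 325 and 144 CPM with TME-CM, at 84.6, 110.3, 106 and 73.6 CPM with H-CM and at 140.5, 202, 47.3 and 144 CPM without stimulation. Its TME-CM libraries all lay above the H-CM libraries, which held for 3.54% of all genes in this direction, and the log2 fold change was 1.08 (SE 0.44, adjusted p = 0.746). The summed level of the 10 genes was 5808 ± 1497 CPM in unstimulated EGCs, 5241 ± 556 CPM in H-CM EGCs and 6863 ± 1743 CPM in TME-CM EGCs, with overlapping groups. The count of called members also stayed at 0 without H-CM replicate 4, the library of 13518 counts, in which Myh11, Cnn1 and Tpm2 had no count. In the single model of all 36 libraries 1 of the 10 genes was called for TME-CM versus H-CM at 6 h. The share of all genes called in that model, or without H-CM replicate 4, is not given here. These counts are therefore not read as particular to the 10 genes.

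In cultures without conditioned medium all 10 genes had positive log2 fold changes from 6 h to 12 h and from 12 h to 24 h, of which 2 passed the test. The summed level of the 10 genes was 3763 to 7362 CPM in the 6 h libraries, 10671 to 11304 CPM in the 12 h libraries and 13529.6 to 16279 CPM in the 24 h libraries. From 6 h to 12 h, Myh11 and Cald1 were called higher, with log2 fold changes of 1.57 (SE 0.31, adjusted p = 0.0223) and 1.25 (SE 0.23, adjusted p = 0.0173), where 0.294% of the 11901 genes tested were called higher. For 5 genes (Tagln, Myh11, Tpm1, Tpm2 and Cald1) all 12 h libraries lay above all 6 h libraries, against 5.14% of all genes. Both calls were lost without unstimulated replicate 1, 3 or 4 of 12 h, and that of Myh11 also without replicate 2 of 6 h (adjusted p between 0.0649 and 0.0926). At 6 h unstimulated replicates 1 to 3 had 256453 to 1731959 counts and Yam1 shares of 43.1 to 46.3%. Replicate 4 of 6 h had 4631102 counts and a share of 13.1%. The 12 h libraries had 2005239 to 5961933 counts and shares of 12.6 to 39.9%. Time and these library traits are not separated here, and their part was not tested. From 12 h to 24 h, 0 members were called by edgeR, as were 0% of all genes, and 0 members and 0 of all genes by DESeq2. An unadjusted p under 0.05 was found for 4 members, all higher, against 0.975% of all genes in either direction. For 5 genes (Acta2, Cnn1, Actg2, Tpm1 and Tpm2) every 24 h library lay above every 12 h library, against 2.76% of all genes. Acta2, for example, stood at 3337, 3599, 3587 and 3804 CPM at 12 h, under the 24 h values given above.

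With H-CM, Tagln was called higher at 12 h than at 6 h, with a log2 fold change of 1.02 (SE 0.24, adjusted p = 0.0194), where 1.43% of the 12029 genes tested were called higher. Its H-CM libraries stood at 229, 270.1, 182 and 184 CPM at 6 h and at 574, 603, 318 and 363 CPM at 12 h, without overlap. That call was lost without replicate 1 or 3 of 6 h or replicate 2 of 12 h (adjusted p between 0.0630 and 0.0903). H-CM replicates 1 to 3 of 6 h had Yam1 shares of 43.9 to 48.6%, against 14.9 to 32.6% in the 12 h H-CM libraries. For 6 of the 10 genes the 12 h H-CM libraries all lay above the 6 h ones, against 7.07% of all genes. Without the small replicate 4 of 6 h 2 genes were called, and the share of all genes in that fit is not given here. From 12 h to 24 h with H-CM 0 members and 0% of all genes were called by edgeR, and 0 members and 0 of all genes by DESeq2. There 0 members had an unadjusted p under 0.05, against 3.42% of all genes. With TME-CM 0 members were called from 6 h to 12 h, where 1.53% of 12013 genes were called in either direction, and 0 from 12 h to 24 h, where 0.0166% were. At an unadjusted p under 0.05 these gave 2 and 1 members, all lower. DESeq2 called 0 members in both, and 1200 and 5 of all genes. The range of the 10 log2 fold changes from 12 h to 24 h was 0.03 to 0.78 without stimulation, -0.25 to 0.23 with H-CM and -0.50 to 0.39 with TME-CM. The change of the TME-CM versus H-CM difference from 12 h to 24 h was tested directly. Of the 10 genes 0 passed by edgeR or DESeq2, and 0% of all genes were called by edgeR and 0 by DESeq2. An unadjusted p under 0.05 was found for 0 members, against 2.82% of all genes. The values of this change were between -0.41 for Acta2 and 0.36 for Cnn1.

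The levels of other cell type markers are given beside these results, and their part in the results was not tested. The 8 glial markers summed to 233 ± 14.1 CPM without stimulation, 259.9 ± 16.2 CPM with H-CM and 247 ± 33.2 CPM with TME-CM at 24 h, and none was called in a comparison between stimulations at 12 h or 24 h. The 7 neuron markers summed to 368 to 424, 375 to 463 and 320.3 to 516 CPM and the 5 of 6 macrophage markers in the table to 42.4 to 163, 65.9 to 294 and 55.4 to 289 CPM in the same order of groups, and gave no call either. The 10 fibroblast markers summed to 7009.9 to 9115 CPM without stimulation, 5891 to 6656 CPM with H-CM and 6999 to 8904 CPM with TME-CM. 4 of them were higher with TME-CM than with H-CM at 24 h, namely Dcn, a collagen-binding proteoglycan (1.21 on the log2 scale), Pdgfra, a growth factor receptor (0.93), Lum (0.65) and Col3a1 (0.44). Against unstimulated EGCs at 24 h the fibroblast markers went both ways with TME-CM, with Dcn (1.21) and Pdgfra (1.61) called higher and Thy1 (-1.55), Fn1 (-0.61) and Col1a1 (-0.43) called lower. With H-CM, Thy1 (-1.53) and Col1a1 (-0.53) were called lower than without stimulation and none higher. Of all genes, 4.82% were called higher and 4.70% lower with TME-CM than without stimulation, and 1.07% and 0.960% with H-CM. Between the media 2.75% of all genes were called higher and 2.65% lower with TME-CM. The 5 pericyte markers summed to 150.5 to 264, 171 to 193 and 97.8 to 139.6 CPM in the same order of groups, with Cspg4 called lower with TME-CM than with H-CM (-1.42, SE 0.20, adjusted p = 0.000102). Against unstimulated EGCs, Cspg4 was lower (-1.95, SE 0.20, adjusted p = 6.64e-07) and Rgs5 higher (0.73, SE 0.18, adjusted p = 0.00921) with TME-CM, and no pericyte marker was called with H-CM. Thy1, Fn1, Col1a1 and Rgs5 were named after their values were seen. The 3 markers of interstitial cells of Cajal, the gut pacemaker cells, summed to 101 to 153, 101 to 159 and 51.8 to 104 CPM, and Ano1 (-1.22) and Kit (-1.28) were called lower with TME-CM than with H-CM. Only Ano1 of these was called against unstimulated EGCs, lower with TME-CM (-1.36). No marker of these 6 lists had a group mean of 0 at 24 h.

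**Figure D3:**
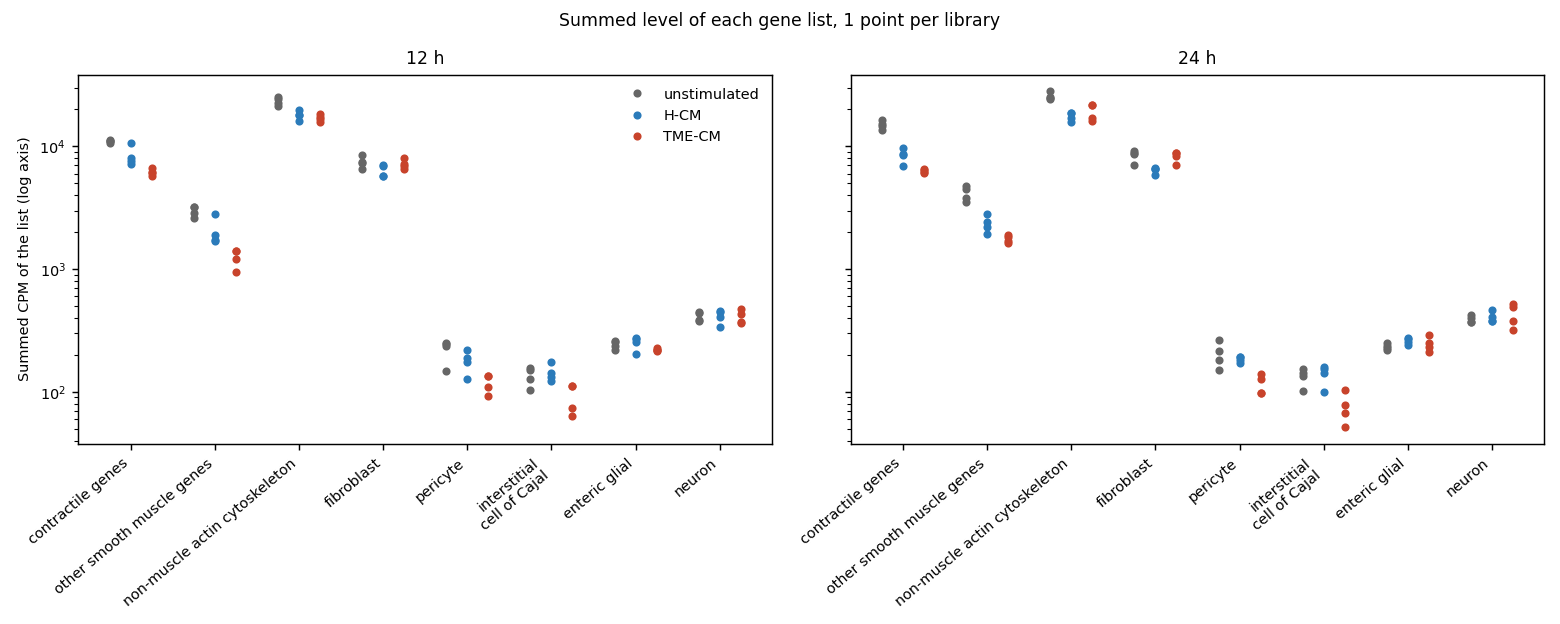
Summed CPM (log axis) of the 10 contractile genes and of 7 other gene lists at 12 h (left) and 24 h (right), with 1 point per library (grey unstimulated, blue H-CM, red TME-CM). At 24 h the contractile genes sum to 13529.6 to 16279 CPM without stimulation and 6070.0 to 6489 CPM with TME-CM, while the glial markers sum to 218 to 251 and 213 to 291 CPM.

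The 15 other smooth muscle genes, Csrp1 among them, which include kinases, scaffolds and filament proteins of the same apparatus, gave calls in the same direction as the 10 genes. At 24 h 10 of the 15 were lower with TME-CM and 5 with H-CM than without stimulation, against 4.70% and 0.960% of all genes. Between the media 3 of the 15 were lower with TME-CM, against 2.65% of all genes. None of the 15 was higher in these comparisons. The median log2 fold changes of the 15 were -0.87, -0.57 and -0.24 in that order. The 4 with the smallest p between the media, with their log2 fold changes, were Pgm5 (-1.27, SE 0.17, adjusted p = 3.96e-05), Synpo2 (-1.52, SE 0.27, adjusted p = 0.00113), the myosin light chain kinase gene Mylk (-0.52, SE 0.14, adjusted p = 0.0314) and Jph2 (-0.92, SE 0.30, adjusted p = 0.1). Of 14 tested genes of SRF, its cofactors and their targets, 4 were lower with TME-CM and 4 with H-CM than without stimulation at 24 h. The shares of all genes called lower there were 4.70% and 0.960%, as above. None of the 14 differed between the media.

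Over the 24 libraries of 12 h and 24 h the levels of the 10 genes were positively correlated in every pair. Pearson's r of log2 CPM over these libraries ranged from 0.29 to 0.94 in the 45 pairs, with a median of 0.81. Cald1 was least like the mean of the other 9 genes (r = 0.59) and Tpm1 most (r = 0.95). After the mean of each group was subtracted, r ranged from -0.47 to 0.82 with a median of 0.26, and the highest pairs were Actg2 with Myl9 (0.82) and Myh11 with Des (0.81). The points share library depth and stimulation group, and the coefficients are descriptions.

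**Figure D4:**
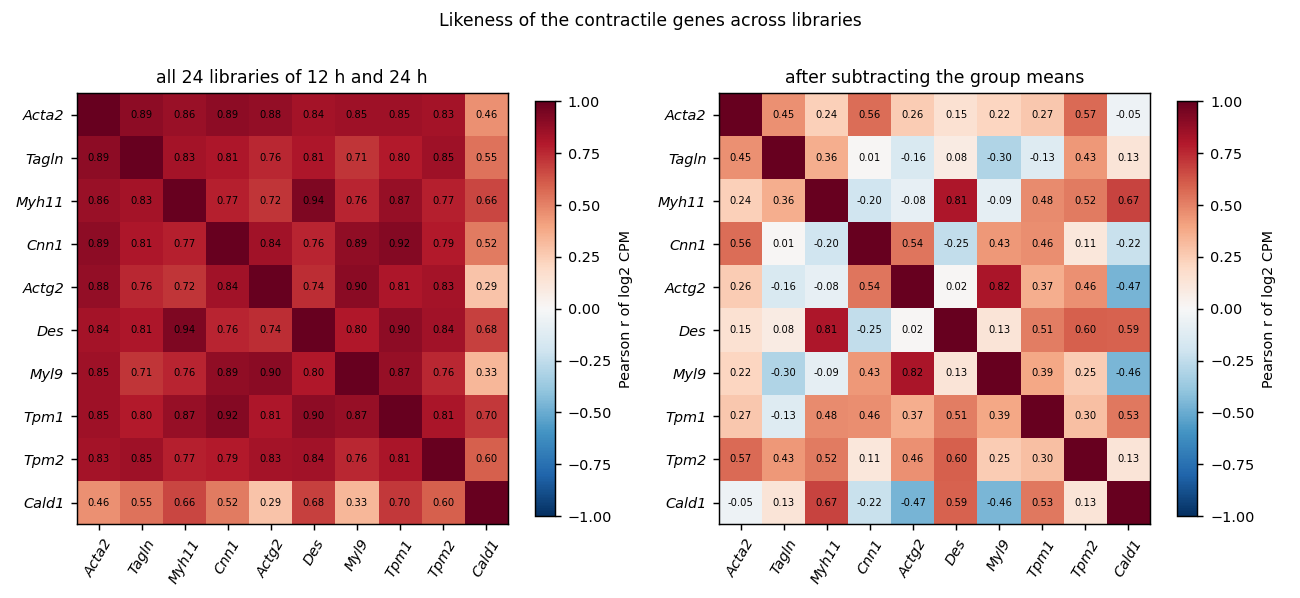
Pearson's r of log2 CPM for each pair of contractile genes over the 24 libraries of 12 h and 24 h, before (left) and after (right) the group means were subtracted. Red is positive and blue negative. The median of the 45 pairs is 0.81 on the left and 0.26 on the right.

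Among 10026 genes outside the 10, the 8 whose log2 CPM followed the mean of the 10 most closely over the 24 libraries were Csrp1, a LIM protein of smooth muscle (r = 0.95), Mgll, a monoacylglycerol lipase (0.95), Ptrf, which encodes the caveolar coat protein cavin-1 (0.94), Myom1, a sarcomere protein (0.93), Prss23 (0.92), Tnfrsf11b (0.91), Ckb, the brain-type creatine kinase (0.90), and Timp3 (0.90). Between TME-CM and H-CM at 24 h, 5 of these 8 were called lower, namely Ptrf, Myom1, Prss23, Ckb and Timp3, with log2 fold changes from -1.68 for Myom1 to -0.67 for Ptrf. Of all genes 2.65% were called lower there. The choice of the 8 genes used these same libraries.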

How the data were processed

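QuantSeq 3′ mRNA libraries of 36 EGC samples were analysed, and groups came from the sample labels. Whole-number counts for each gene symbol were deposited, which the authors made by adapter filtering with fastq-mcf, alignment to mm10 with HISAT2, removal of reads mapping to several loci and counting with HT-seq Count. The submitters' processing notes also list FastQC 0.11.7 and SAMtools 1.5. The annotation, whether counting used strand and whether molecular identifiers were collapsed are not given in the sources used here.

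Counts were fitted in R 4.3.3 with edgeR 4.0.16: filterByExpr (minimum count 10), TMM scaling, a robust quasi-likelihood model with 1 mean per group for the 12 libraries of a time point or stimulation, and Benjamini-Hochberg adjustment over all genes tested. SE is the absolute log2 fold change divided by the root of F. The calling was tested on simulated data. Floors (3 counts) cover counting error only. Log2 CPM used a prior count of 2. No 2 replicates agreed within sampling noise (chi-square per degree of freedom at least 3.32 in 54 pairs). Alternatives included DESeq2 1.42.0, each library left out, and, chosen after seeing the data, the Yam1 settings. The members and the 12 other lists were chosen with earlier results of these data known, and up to 4 genes of another list were named, those with the smallest p for TME-CM versus H-CM at 24 h. The genes most alike had a mean of at least 5 CPM. Positions are from a GRCm38 annotation (mm10) and promoters from RefSeq. Single values of some listed genes are not reported here.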

Additional observations from a re-analysis of the deposited data

Results flagged for a closer look

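In 8 of the 90 groups of 4 libraries (10 genes in 9 groups), 1 library stood apart from the other 3 by more than Dixon's critical value for groups of 4, and chance gives about 1 in 20 groups. Myl9 was high in replicate 2 of TME-CM EGCs at 12 h (291 CPM, the others 173 to 187 CPM) and in replicate 2 at 24 h (314 CPM, the others 164 to 182 CPM). Myh11 was low in TME-CM replicate 4 of 12 h (20.6 CPM, the others 37.6 to 40.2 CPM). Cald1 was low in H-CM replicate 1 of 24 h (1934 CPM, the others 2740.2 to 2823 CPM). Tpm2 was high in unstimulated replicate 2 of 12 h (569 CPM, the others 461 to 479 CPM). At 6 h, Des was high in TME-CM replicate 3 (185 CPM, the others 37.3 to 42.1 CPM). The library of 13518 counts, H-CM replicate 4 of 6 h, was low for Myl9 (110.5 CPM, which is 3 counts, the others 233 to 242 CPM) and had 0 counts of Tpm2 (the others 214 to 249 CPM).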

How the results depend on the processing

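Counts of called members stayed within 1.5 times their value, and no named member changed direction, under DESeq2's size factors or with Yam1 removed from the counts. With no filter on low counts, 5 members were called for TME-CM versus H-CM at 12 h, 7 at 24 h, 1 for H-CM versus unstimulated at 12 h and 3 for H-CM at 12 h versus 6 h. DESeq2's Wald test called 5 for unstimulated 12 h versus 6 h and 2 for H-CM 12 h versus 6 h. Over all genes it called 369 and 355 in the same comparisons. By edgeR 26 genes were called lower and 35 higher in the first, and 184 lower and 172 higher in the second. For the other refits of this section the number of all genes called is not given here. Their member counts are therefore not read as particular to these genes. In the single model of 36 libraries 1 member was called for TME-CM versus H-CM at 6 h, 0 at 12 h and 0 at 24 h, 5 for TME-CM versus unstimulated at 12 h, 3 for H-CM versus unstimulated at 24 h and 0 for H-CM 12 h versus 6 h. For TME-CM versus H-CM at 24 h, 7 were called with a term for a Yam1 share above 25% and 7 in libraries with a share up to 25%. With that term the log2 fold change of Cald1 between the media at 24 h was 0.031. Leaving out 1 library gave 1 to 4 members for TME-CM versus H-CM at 12 h, 0 to 5 for unstimulated 12 h versus 6 h and 0 to 4 for H-CM 12 h versus 6 h, and Tpm2 between the media at 12 h ranged from -0.39 to 0.018. For the 63 log2 fold changes of members followed through the alternatives, these losses and gains included, a refit moved a value out of the call 60 times and into it 31 times, and left its side of the threshold as it was 1134 times, called or not. The cause was not tested.

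Replicates share only a number: the correlation of same-numbered libraries' deviations from their group means was between -0.16 and 0.22, and in no comparison was it over 0.1 in all 4 pairs. With the replicate number as a block, 2 members were called for TME-CM versus H-CM at 12 h, 5 at 24 h and 1 for unstimulated 12 h versus 6 h, against 3, 4 and 2 without it. In every other comparison the count was the same. All 4 libraries correlated best with their own number in no comparison. At 6 h the common dispersion was 0.572, against 0.122 at 12 h and 0.0455 at 24 h.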

Other observations

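Further gene lists around the contractile genes gave calls in both directions at 24 h, with values given as log2 fold changes. Of 13 genes of TGF-beta and PDGF signaling, pathways known to act on smooth muscle and myofibroblast genes, 2 were higher and 3 lower with TME-CM than with H-CM. Of all genes, 2.75% were called higher and 2.65% lower there. The ligand gene Tgfb3 was lower with TME-CM than with H-CM (-0.80, SE 0.14, adjusted p = 0.00108), as was Tgfb2 (-0.61, SE 0.15, adjusted p = 0.0185), while Pdgfa was higher (0.84, SE 0.13, adjusted p = 0.000242). Of 14 genes of the non-muscle actin cytoskeleton, 6 were lower with TME-CM and 6 with H-CM than without stimulation and none higher. Of all genes, 4.70% and 0.960% were called lower in these comparisons. Between the media the non-muscle myosin gene Myh10 was lower (-1.28, SE 0.25, adjusted p = 0.00540) and Tagln2, the non-muscle relative of Tagln, higher (0.45, SE 0.12, adjusted p = 0.0263) with TME-CM.

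Among the genes of SRF, its cofactors and targets, the filamin gene Flna had a lower level with TME-CM than without stimulation (-0.73, SE 0.13, adjusted p = 0.000545). The 9 striated muscle markers summed to 118 to 242 CPM without stimulation and 39.7 to 249.7 CPM with TME-CM. Of these 6 passed the filter. At 24 h Acta1, the skeletal alpha actin gene, was lower with TME-CM than with H-CM (-1.55, SE 0.29, adjusted p = 0.00135) and than without stimulation (-2.96, SE 0.28, adjusted p = 1.05e-07). The other tested markers were not called between the media and went both ways. Actc1 (0.40), Myh7 (0.82) and Ttn (0.81) had positive values there, and Myh6 (-0.55) and Tnnt2 (-0.43) negative ones. Against unstimulated EGCs, Tnnt2 was also called lower with TME-CM (-1.43, SE 0.32, adjusted p = 0.00679), and the remaining markers were not called. These markers other than Acta1 were named after their values were seen. Myod1, a factor of skeletal muscle, had 0 counts in all libraries. Of 4 mesothelial markers 2 were tested at 24 h and none was called.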
